A study of Mus musculus with 12 samples.

Results

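Genes of RNA processing and RNA binding were followed among the promoters whose contacts were mapped in mouse haematopoietic stem cells (HSCs). They were taken by name, as every captured gene whose symbol begins with Hnrn, Srsf, Sf3, Snrp, Ddx, Dhx, Rbm, Prpf, Lsm, Pabp, Celf, Mbnl, Cnot, Nop or Pum, with Pabpc4 left out. Prefixes of cleavage and exosome subunits (Cpsf, Cstf, Exosc) were searched as well and matched no listed gene. Here and below, captured means listed with a called contact. Promoters that were captured without a called contact are not listed and cannot be seen. The rule found 73 promoter entries of 67 genes, which is 1.93% of the 3781 entries in all. An entry is one captured promoter fragment in one of 2 batches, and a suffix such as _1 marks a further promoter of the same gene. The first batch held 59 of these entries and the second held 14. Celf2, Ddx18, Nop56 and Sf3a2 each had more than one captured promoter, as did Hnrnpm with 3. Ddx26b and Ddx39 are older names of Ints6l and Ddx39a.

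Pre-mRNA splicing is carried out by the spliceosome, which is assembled from small nuclear RNAs wrapped in Sm or LSm protein rings, from particle-specific proteins such as SF3A, and from Prp factors and RNA helicases that remodel it. SR proteins and hnRNP proteins bind the transcript and steer the choice of splice sites, often in opposite directions, and CELF and MBNL proteins do so in a tissue-dependent way. Other RNA helicases serve ribosome assembly, RNA export or the sensing of viral RNA, NOP proteins act in the nucleolus on ribosomal RNA, and poly(A)-binding, CCR4-NOT and Pumilio proteins set the life of the mRNA. Most of these genes are expressed in nearly all cells, and blood stem cells depend on intact splicing.

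Fetal HSCs came from fetal liver at embryonic day 14.5 and adult HSCs from bone marrow of mice aged 6 to 8 weeks, both of the strain B6129SF1 and both sorted as Lin-Sca1+cKit+CD135-. Neither population carried a transgene or a treatment in the labels. Each gave 4 promoter Capture-C libraries, 2 in each batch. In this assay, cross-linked chromatin is cut with DpnII and ligated, and probes pull down the ligation products of chosen promoters. The other 4 samples of the series, of the blood progenitor line HPC7, were not analysed here.

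For each batch the table gives 1 pooled value per population, so the spread between libraries is unknown and differences are given without a test. Shares are printed with 95% binomial intervals (Clopper-Pearson), which reflect counting error only and understate it, because adjacent bins are often called as a group. A contact joins a promoter fragment (median length 660 bp for these genes) and a distal bin of 2 kb. It was called in a population when the authors' score for it was above 0, and the smallest such score was 1.3 in the first batch and 2 in the second. The batches were therefore kept apart, with some exceptions. Totals and counts per gene family add both batches. So do the counts of distal bins, of pairs with captured promoters and of contacts between chromosomes. The listed contacts of these genes held 25748 (fetal) and 19051 (adult) counts for first-batch promoters, with 12664 and 11261 for the others. Without contacts of at least 1000 counts in either population the totals were 19254 and 17893 for first-batch promoters, with 9797 and 8874 for the others. A call rested on a median of 11 fetal or 10 adult counts in the first batch and of 30 or 28 in the second. Coordinates of fragments and bins are those of the deposited table, whose build is mm9 in the submitters' processing notes.

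The promoters of these genes were rich in CpG dinucleotides, and several of the motifs searched were found in more of them than in other captured genes. RefSeq promoter windows of 300 bases (250 before the start and 50 after it, build GRCm38.p6) were matched for 60 of the 67 genes and gave 82 windows. The ratio of observed to expected CpG was 0.6 or more in 84.1% of them, against 63.0% of the windows of other captured genes and 35.8% of all windows of the table. The letters CCGGAAG, a core bound by ETS factors, stood on either strand in a window of 20 of the 60 genes (33.3%). They stood in 17.1% of 2413 other captured genes and in 9.93% of all 27025 genes. Among the 20 were Snrpe, Snrpc, Snrpg, Snrpb2 and Sf3a2 of the spliceosome, Srsf5 and Srsf7, and the helicases Ddx5, Ddx50 and Dhx8. The TATA box TATAAA was found in 20% of these genes and 9.82% of other captured genes, the E-box CACGTG in 20% and 12.5%, and the CCAAT box CCAAT in 55% and 43.4%. The GC box GGGCGG was found in 68.3% of these genes and 67.4% of other captured genes, nearly the same share. The core of the interferon-stimulated response element, GAAANNGAA, was found in 7 of the 60 genes (11.7%), against 10.5% of other captured genes. The 7 were Ddx58, Ddx60, Dhx30, Nop2, Rbm15, Rbm41 and Snrpe. GATA-type AGATAA was present in 10.0% of these genes and 8.70% of other captured genes. A match is a description of the letters in the window and shows no binding.

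**Figure D1:**
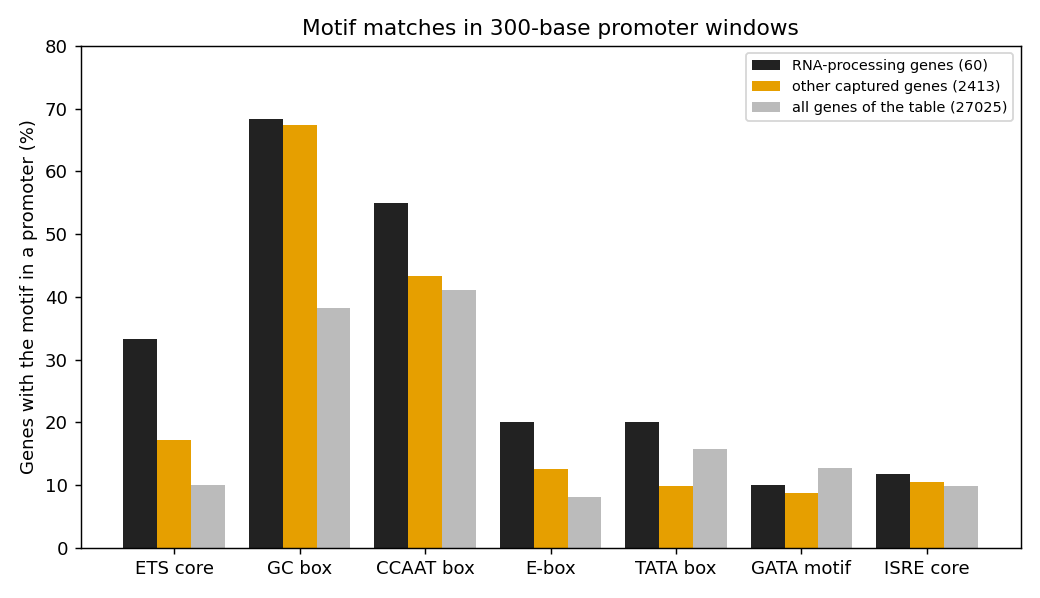
Share of genes (y axis, percent) with a match to each motif (x axis) on either strand of a 300-base RefSeq promoter window, for the RNA-processing genes, the other captured genes and all genes of the promoter table. The bar of the ETS core stands at 33.3% for the RNA-processing genes and 17.1% for other captured genes, while the GC box bars are nearly level.

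The following windows are shown for the promoters with the densest contacts (Snrpe, Dhx8). Srsf5 is added as the SR gene with an adult lean in contacts and in RNA. Ddx58 and Ddx60 are added as antiviral helicase genes that have the interferon core and higher RNA in adult cells. Dhx58, an antiviral helicase gene with higher RNA in adult cells too, was not among the 7 with the core. Of the 7, Ddx58, Ddx60 and Rbm41 had higher RNA in adult cells, and Dhx30, Nop2, Rbm15 and Snrpe in fetal cells. No relation of the core to RNA is read from this choice. The windows run from upstream to downstream on the strand of the gene. Capitals mark the ETS core in Snrpe, Srsf5 and Dhx8, and the interferon element core in Ddx58, Ddx60 and, as the run next to the ETS core, in Snrpe. In Snrpe the ETS core is read on both strands within one overlapping run.
Snrpe (promoter, chr1:133610231-133610530, minus strand): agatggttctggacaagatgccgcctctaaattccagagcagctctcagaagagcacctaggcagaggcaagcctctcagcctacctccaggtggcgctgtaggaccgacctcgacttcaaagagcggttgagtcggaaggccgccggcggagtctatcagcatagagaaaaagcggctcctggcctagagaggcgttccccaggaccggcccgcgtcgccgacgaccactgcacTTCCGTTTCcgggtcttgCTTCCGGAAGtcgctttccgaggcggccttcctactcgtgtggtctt
Srsf5 (promoter, chr12:80945249-80945548, plus strand): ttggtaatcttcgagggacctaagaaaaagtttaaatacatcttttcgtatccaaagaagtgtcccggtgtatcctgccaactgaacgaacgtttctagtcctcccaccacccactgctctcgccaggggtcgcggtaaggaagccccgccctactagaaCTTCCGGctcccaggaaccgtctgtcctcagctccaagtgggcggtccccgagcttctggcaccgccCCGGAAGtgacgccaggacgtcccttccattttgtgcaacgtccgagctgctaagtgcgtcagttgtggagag
Dhx8 (promoter, chr11:101732706-101733005, plus strand): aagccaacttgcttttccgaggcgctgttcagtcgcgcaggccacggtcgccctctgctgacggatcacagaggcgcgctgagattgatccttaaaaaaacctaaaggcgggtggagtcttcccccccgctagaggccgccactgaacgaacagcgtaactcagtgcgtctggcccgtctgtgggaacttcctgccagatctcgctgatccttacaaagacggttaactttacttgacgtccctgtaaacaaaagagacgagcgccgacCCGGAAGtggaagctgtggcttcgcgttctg
Ddx58 (promoter, chr4:40239776-40240075, minus strand): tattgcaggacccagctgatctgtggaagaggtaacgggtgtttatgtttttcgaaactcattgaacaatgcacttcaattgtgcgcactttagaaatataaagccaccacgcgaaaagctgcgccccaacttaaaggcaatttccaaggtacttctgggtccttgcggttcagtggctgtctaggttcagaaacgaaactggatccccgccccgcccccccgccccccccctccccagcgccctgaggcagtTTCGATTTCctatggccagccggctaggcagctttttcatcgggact
Ddx60 (promoter, chr8:61927837-61928136, plus strand): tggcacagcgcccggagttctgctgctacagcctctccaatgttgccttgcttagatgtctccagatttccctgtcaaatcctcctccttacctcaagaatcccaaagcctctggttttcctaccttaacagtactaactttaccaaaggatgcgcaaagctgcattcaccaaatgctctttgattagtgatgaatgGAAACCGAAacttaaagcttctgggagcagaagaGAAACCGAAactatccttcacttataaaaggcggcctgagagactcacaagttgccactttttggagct
The ETS core lay close to the annotated start in Snrpe and Dhx8, both interferon cores of Ddx60 lay ahead of its start, and the single one of Ddx58 lay just after it.

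Counted per bin, adult contacts were slightly more numerous than fetal ones across these promoters, while over all other promoters fetal contacts were. First-batch promoters had 922 fetal and 996 adult calls, a fetal share of 48.1% (45.8 to 50.3%), against 51.5% for all other entries. Second-batch promoters had 211 and 225, a fetal share of 48.4% (43.6 to 53.2%), against 51.8%. Both intervals hold 50%. With called bins up to 5 kb apart merged, the fetal share was 49.5% (46.5 to 52.4%) against 51.9% in the first batch. In the second it was 49.7% (42.5 to 57.0%) against 54.6%, so fetal and adult numbers at these promoters were then nearly equal. Among contacts called in a single population, 496 were fetal-specific and 570 adult-specific in the first batch, so that fetal-specific ones made up 46.5% (43.5 to 49.6%), against 52.5% for other entries. For the second batch, with 82 and 96, the share was 46.1% (38.6 to 53.7%), against 53.8%. The interval of the second batch holds 50% and nearly reaches the value of other entries. A stricter score narrowed the gap: it left 46.5% against 48.9% in the first batch, whereas the second had 50% against 51.8%.

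The share of contacts that both populations had was at the same time larger than elsewhere when read from the fetal side. Shared contacts numbered 426 in the first batch and were 46.2% (42.9 to 49.5%) of fetal calls, against 39.6% for other entries. The second batch had 129 of them, which is 61.1% (54.2 to 67.8%) of fetal calls, against 52.2%. Read from the adult side the gap nearly closed, with 42.8% against 42.1% for first-batch and 57.3% against 56.0% for second-batch entries. A class rests on the score and not on the counts: 23 of the 570 adult-specific contacts of the first batch had fewer adult than fetal counts (4.04%, against 2.71% for other entries), as did 6 of 96 in the second (6.25%, against 14.4%). Of the fetal-specific contacts, 1 of 496 and 0 of 82 had fewer fetal than adult counts.

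Most promoters differed little in number of contacts, and a few had a large excess on one side. In the first batch adult-specific contacts outnumbered fetal-specific ones by a net 74. Rbm19 (12 fetal-specific and 36 adult-specific), Ddx5 (19 and 41) and Nop2 (6 and 20) together had an adult excess of 60. Other entries leaned the opposite way, such as Rbm6 (32 and 19), Prpf4b (26 and 14) and Srsf7 (17 and 6). Without Rbm19, Ddx5 and Nop2, picked with their values in view, the fetal-specific share was 49.2% (45.99 to 52.5%). Leaving out entries picked for their adult excess can only raise this share, so nothing is read from it. Of the 59 first-batch entries, 26 had more fetal calls and 30 had more adult calls, and 3 had equal numbers. Over all entries of that batch, 48.1% leaned to fetal and 42.1% to adult cells. Among second-batch entries, 6 of 14 had more fetal calls (all entries, 50.1%) and 8 more adult calls (38.1%). A change of at least 2-fold in calls (after 1 was added to each side, over entries with at least 10 calls) was seen in 4 of 41 entries of the first batch. Ddx4 and Hnrnpr were higher in fetal cells, where 6.47% of all entries were, and Lsm7 and Sf3a2 were higher in adult cells, where 4.2% were. None of the 11 entries of the second batch reached 2-fold in either direction, against 5.28% (fetal) and 3.25% (adult) of all entries. The median log2 ratio of fetal to adult calls was -0.12 in the first batch and -0.28 in the second, beside 0.06 and 0.07 over all entries.

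**Figure D2:**
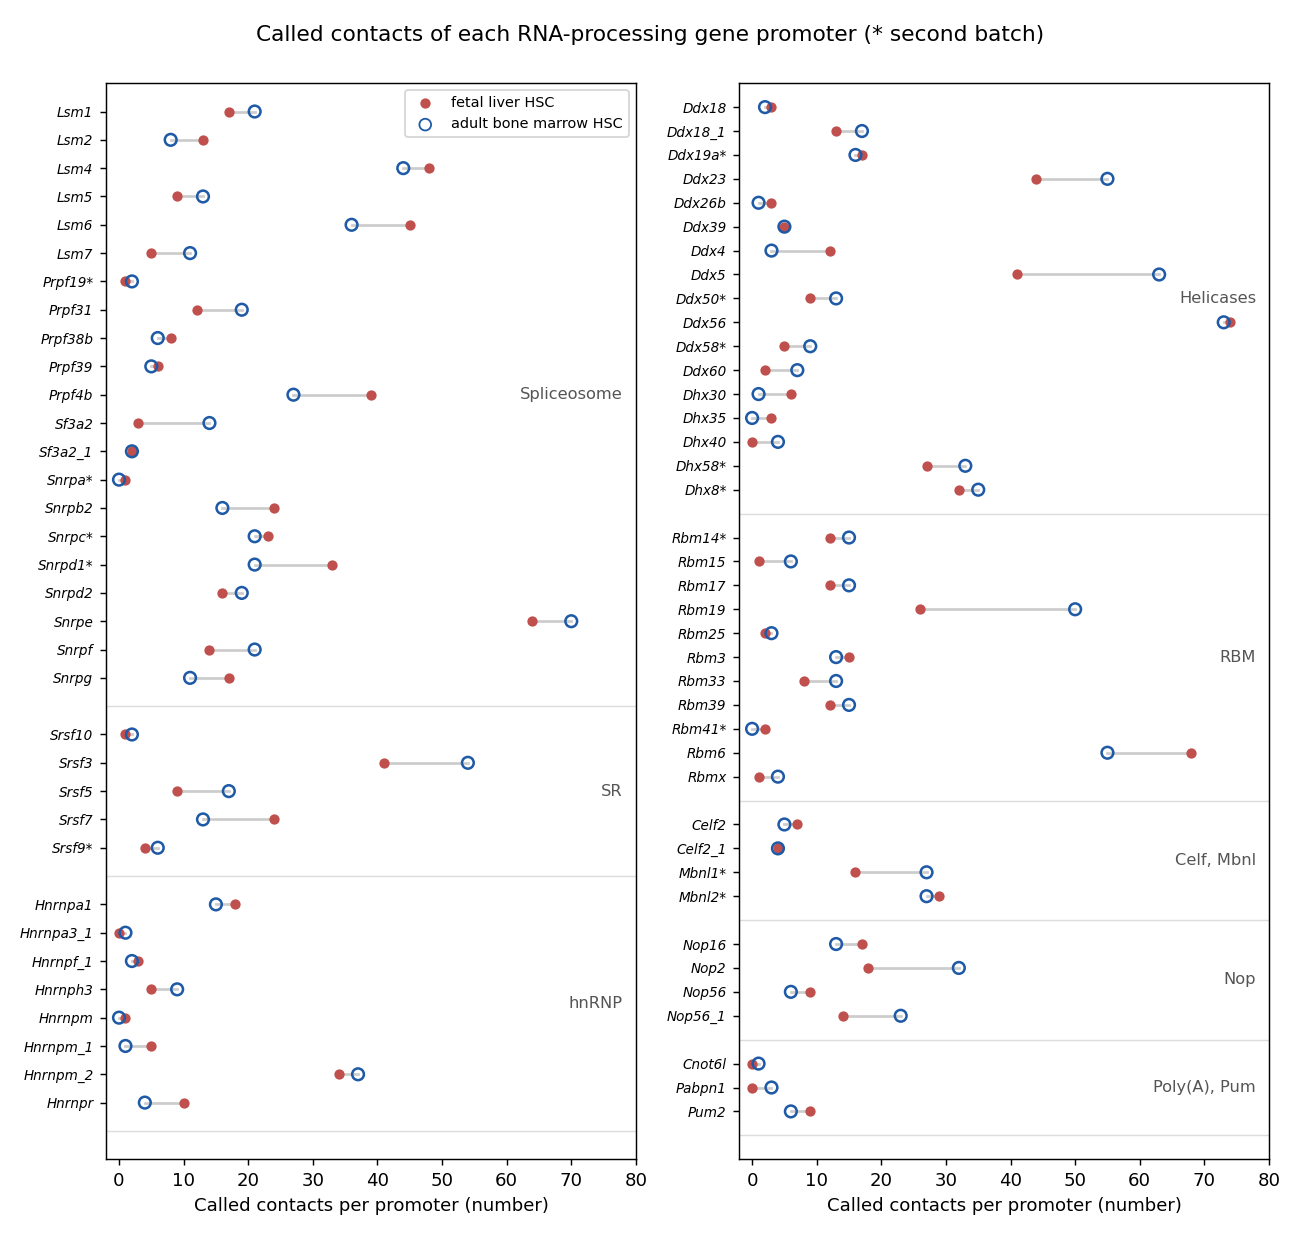
Number of called contacts (x axis) of each of the 73 promoter entries (y axis, grouped by family), with filled points for fetal liver HSCs, open circles for adult bone marrow HSCs and asterisks for second-batch entries. Ddx56 and Snrpe had the most calls, and most pairs of points lie close together, with wider gaps at Ddx5, Rbm19, Nop2, Sf3a2, Srsf7 and Snrpd1.

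Pooled over calls, the median reach of contacts differed less between fetal and adult cells at these promoters than at others. In the first batch the median distance was 185 kb for fetal and 177 kb for adult calls, a gap of 8.44 kb, whereas other entries had 177 and 153 kb, a gap of 24.7 kb. Second-batch medians were 91.7 and 88.2 kb, with a gap of 3.56 kb, against 102 and 77.5 kb, a gap of 24.4 kb, elsewhere. Of the entries with at least 5 calls within the chromosome in each population, 24 of 37 had the longer median in fetal cells in the first batch (all entries, 67.1%) and 7 of 10 in the second (84.6%). Counted per promoter, the first batch was thus near the background, and the second rests on few entries. The pooled medians weigh each promoter by its calls, and 5 entries held 25.8% of all calls of these genes. The smaller pooled gap is therefore not read as a trait of the single promoters.

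Stage-specific contacts, again pooled over promoters, were then divided by distance. At 150 to 500 kb the fetal-specific share was 51.2% (47.1 to 55.3%) in the first batch, against 59.3% for other entries. The second batch had 51.2% (35.1 to 67.1%) there, against 70.6%. At 60 to 150 kb it was 41.2% (35.9 to 46.7%) against 43.7% in the first batch, and 51.0% (40.8 to 61.1%) against 64.5% in the second. At 20 to 60 kb the order turned, with 40.0% (26.4 to 54.8%) against 30.3% and 25.7% (12.5 to 43.3%) against 15.5%. Over these bands the share rose with distance less steeply in both batches than over the other promoters, though the intervals below 60 kb are wide. Contacts under 20 kb and beyond 500 kb are left out of this statement.

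**Figure D3:**
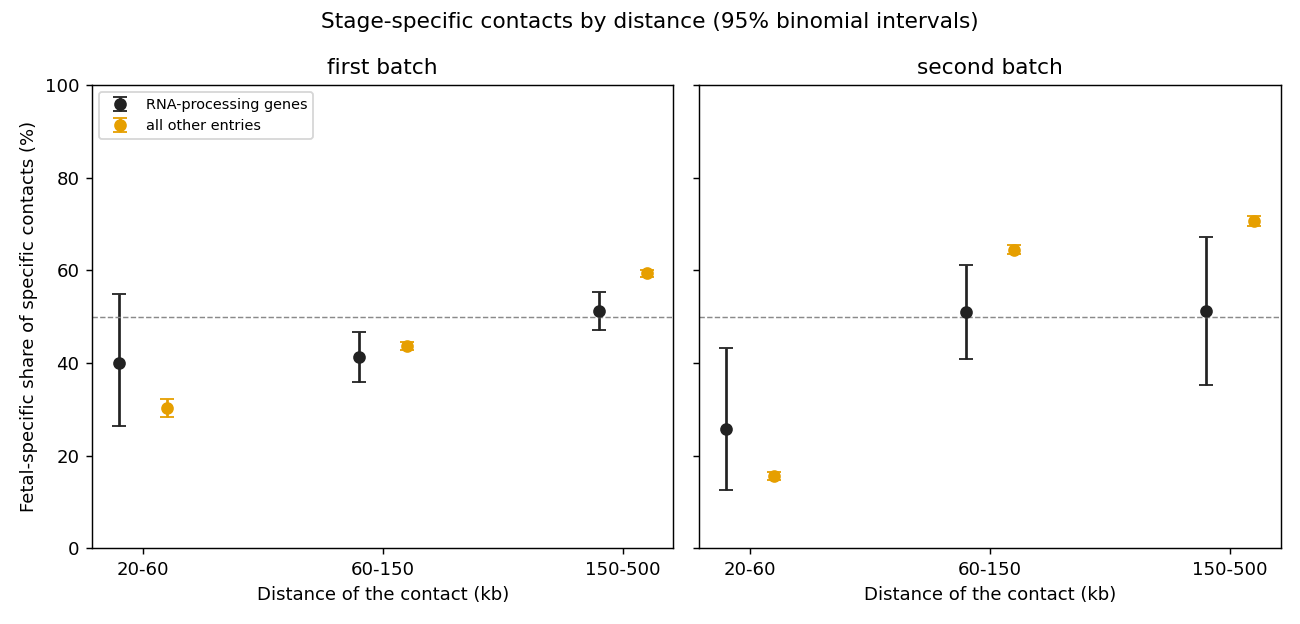
Fetal-specific share of stage-specific contacts (y axis, percent) by distance from the promoter (x axis, kb) in each batch, for RNA-processing genes and all other entries, with 95% binomial intervals. Other entries climb from 30.3% to 59.3% in the first batch and from 15.5% to 70.6% in the second, while RNA-processing genes stay between 40.0% and 51.2% and between 25.7% and 51.2%.

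The distal bins of these genes were more often active promoters than those of other genes, and active enhancers about as often. In the first batch 22.7% (20.0 to 25.5%) of fetal calls fell on bins marked as active promoters in fetal cells, against 15.3% elsewhere. The adult figure was 21.4% (18.9 to 24.1%) against 18.2%. The second-batch fetal share was 21.3% (16.0 to 27.5%) against 18.2% and the adult share 23.1% (17.8 to 29.2%) against 20.3%, gaps that lie within the counting error. First-batch calls at active enhancer bins made up 13.3% (fetal) and 13.9% (adult), against 12.6% and 13.1% elsewhere. Second-batch calls there made up 12.8% and 14.2%, against 12.9% and 13.7%. Open chromatin, marked from ATAC, was met by 60.2% (57.0 to 63.4%) of fetal calls in the first batch, against 52.8%, and by 59.2% (56.1 to 62.3%) of adult calls, against 54.4%. Second-batch shares were 58.8% (51.8 to 65.5%) against 56.7% for fetal and 59.1% (52.4 to 65.6%) against 57.2% for adult calls, within the counting error.

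Bins active as enhancers in a single population were contacted in both directions. In the first batch, bins active only in adult cells drew 23 adult-specific, 13 fetal-specific and 14 shared contacts. Bins active only in fetal cells drew 20 adult-specific, 16 fetal-specific and 23 shared contacts. Adult-specific contacts were thus the more numerous at both kinds of bin. These counts are given without those of other entries, and no relation of mark and class is read from them. In the second batch the numbers were small. Adult-only bins drew 8 adult-specific, 0 fetal-specific and 6 shared contacts, and fetal-only bins drew 3 fetal-specific, 0 adult-specific and 7 shared. The 0 of 8 allows a fetal-specific share of up to 36.9%.

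Spliceosome genes formed the largest family, with 21 entries of 20 genes, and leaned to fetal cells in RNA and hardly in contacts. They had 400 fetal and 387 adult calls, with 11 entries higher in fetal, 9 in adult and 1 equal. The deposited FPKM was higher in fetal cells for 18 of the 21, and the median log2 ratio of FPKM + 1 was 0.59. Over all entries it was higher in fetal cells for 936 of 1952 in the first batch and 840 of 1829 in the second. Of the 17 first-batch entries the authors marked 3 as differentially expressed and higher in fetal cells (Lsm2, Prpf31 and Snrpb2), where 15.8% of all entries are so marked, and 0 as higher in adult cells, where 19.7% are. The 4 second-batch entries (Prpf19, Snrpa, Snrpc and Snrpd1) were all higher in fetal cells, in a batch where every entry carries the mark.

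Snrpe, which encodes the SmE protein of the Sm ring, had the most calls of the family, 64 fetal and 70 adult, of which 51 were the same contacts. Its fragment lay at chr1:135506336-135506541 (mm9). FPKM was 302 in fetal and 201 in adult cells, the highest fetal level of all 73 entries. The contacts were strongly one-sided: a block of 39 fetal and 33 adult called bins ran without a gap of more than 5 kb from 263 to 181 kb (fetal) and from 247 to 181 kb (adult) toward lower coordinates. The strongest bin, 227 kb away, held 93 fetal and 79 adult counts (scores 80.8 and 68.9) and carried neither an enhancer nor a promoter mark. Within the block lay the captured promoter of Sox13, a gene of an SRY-related transcription factor, 185 kb away, with 35 fetal and 18 adult counts. Both populations called it, at scores of 17.7 and 5.94. Snrpe met 5 bins that were enhancers only in fetal cells, and both populations called each of them.

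The remaining Sm genes had less dense contacts. Snrpd1, another subunit of the Sm ring, had 33 fetal and 21 adult calls, and its strongest bin, 110 kb away, was an active promoter with 124 fetal and 72 adult counts. Among second-batch entries with at least 10 calls it had the largest lean to fetal cells, a log2 ratio of 0.63, and FPKM was 52.0 against 30.9. Snrpg, also of the Sm ring, had 17 fetal and 11 adult calls with FPKM of 130 and 86.6, and both populations called its contact at 33.5 kb with the captured promoter of Tia1, an RNA-binding regulator of splicing and translation (48 fetal and 56 adult counts). Snrpc, a protein of the U1 particle, had 23 and 21 calls. Its contact with the captured promoter of Anks1, 70.2 kb away, held 69 fetal and 68 adult counts.

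LSm genes, whose rings bind U6 RNA or act in mRNA decay, included the entries with clear differences. Lsm2 showed one of the largest differences in RNA, with FPKM of 27.3 in fetal and 11.8 in adult cells, a log2 ratio of 1.14, and 13 fetal against 8 adult calls. Its strongest fetal-specific contact, 140 kb away at an active promoter bin, had 23 fetal and 8 adult counts. Its strongest adult-specific one, 122 kb away at a bin marked as an enhancer in adult cells alone, had 7 fetal and 20 adult counts. Lsm4, with FPKM of 229 and 143, had 48 fetal and 44 adult calls, and bins 25.7 and 27.7 kb away that were active enhancers in both populations held 118 and 134 fetal against 196 and 173 adult counts.

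Lsm7 and Sf3a2, a subunit of the SF3A complex of the U2 particle, are neighbours on chromosome 10 and shared an adult lean in contacts with a fetal lean in RNA. Lsm7 had 5 fetal and 11 adult calls and FPKM of 57.9 and 33.8. Sf3a2 had 3 and 14 calls, a log2 ratio of -1.91, and FPKM of 67.5 and 43.3. Each was called as an adult-specific contact of the other, with a score of 1.43, but fetal counts were the higher ones, 35 against 20 from Lsm7 and 30 against 20 from Sf3a2. In this pair the class and the counts point in opposite directions. The second Sf3a2 fragment, which borders the first, had 2 calls in each population. The Lsm7 fragment was captured again in the second batch under the name 3110056O03Rik, where it had 18 calls in each population. Of the 15 contacts listed in the first batch, 5 were listed again there. The adult lean of Lsm7 is thus a value of a single batch.

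Snrpa, of the U1 particle, was likewise captured in both batches. It had 1 fetal and 0 adult calls in the second batch, while the same fragment, named BC024978 in the first, had 16 and 13, and no contact was listed in both.

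Prpf31, which is needed to join the U4/U6 and U5 particles, contacted the captured promoter of Tsen34, a subunit of the tRNA splicing endonuclease, 63.5 kb away. The bin held 57 fetal and 58 adult counts and was called in both populations. Prpf39, of the U1 particle, had 6 and 5 calls, one of which was an adult-specific contact across 5970 kb with the captured promoter of Pnn, a splicing-associated protein (1 fetal and 10 adult counts). Pairs with RNA-processing targets outside the name rule were picked out after their values were seen.

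SR genes had 79 fetal and 92 adult calls in 5 entries, and 4 of the 5 had more adult calls. Over all entries, 42.1% (first batch) and 38.1% (second) did. Srsf5 had 9 fetal and 17 adult calls, and its FPKM was 89.5 in fetal and 156 in adult cells, so contacts and RNA leaned the same way. Its strongest adult-specific contacts lay 153 and 129 kb away toward lower coordinates, at bins that were active enhancers in both populations, with 8 and 5 fetal against 17 and 15 adult counts. Srsf5 had 8 adult calls at enhancer bins and 1 fetal call.

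Srsf3 had 41 fetal and 54 adult calls and FPKM of 72.7 and 55.7. Bins active as enhancers only in adult cells took 6 adult-specific and 2 shared contacts from it and 0 fetal-specific ones. The nearest of the 6, 17.4 kb away, had 39 fetal and 45 adult counts, and the strongest, 227 kb away, had 5 and 14. Its contacts at bins active as enhancers only in fetal cells were fetal-specific or shared. Over all its bins, 15 contacts were fetal-specific and 28 adult-specific, and no relation of mark and class is read. Srsf3 also contacted the captured promoters of its neighbour Cdkn1a, the gene of the cell-cycle inhibitor p21, at 61.4 kb (26 fetal and 23 adult counts, shared) and at 65.4 kb (16 and 19 counts, called only in fetal cells).

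Srsf7 went the other way in number, with 24 fetal and 13 adult calls, at nearly equal FPKM of 51.1 and 53.8. Yet its strongest stage-specific contact was adult: a bin 143 kb away at an active promoter had 5 fetal and 30 adult counts, with an adult score of 25.5. The bin beside it, 145 kb away, was shared, with 18 fetal and 20 adult counts. Both populations called its contact with the captured promoter of Gemin6, a subunit of the SMN complex that loads Sm rings, 16.7 kb away (53 and 60 counts). Srsf9 had 4 and 6 calls, and the captured promoter of Dynll1, a dynein light chain gene, 26.3 kb away, held 292 fetal and 157 adult counts, shared at scores of 15.2 and 12.0.

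**Figure D4:**
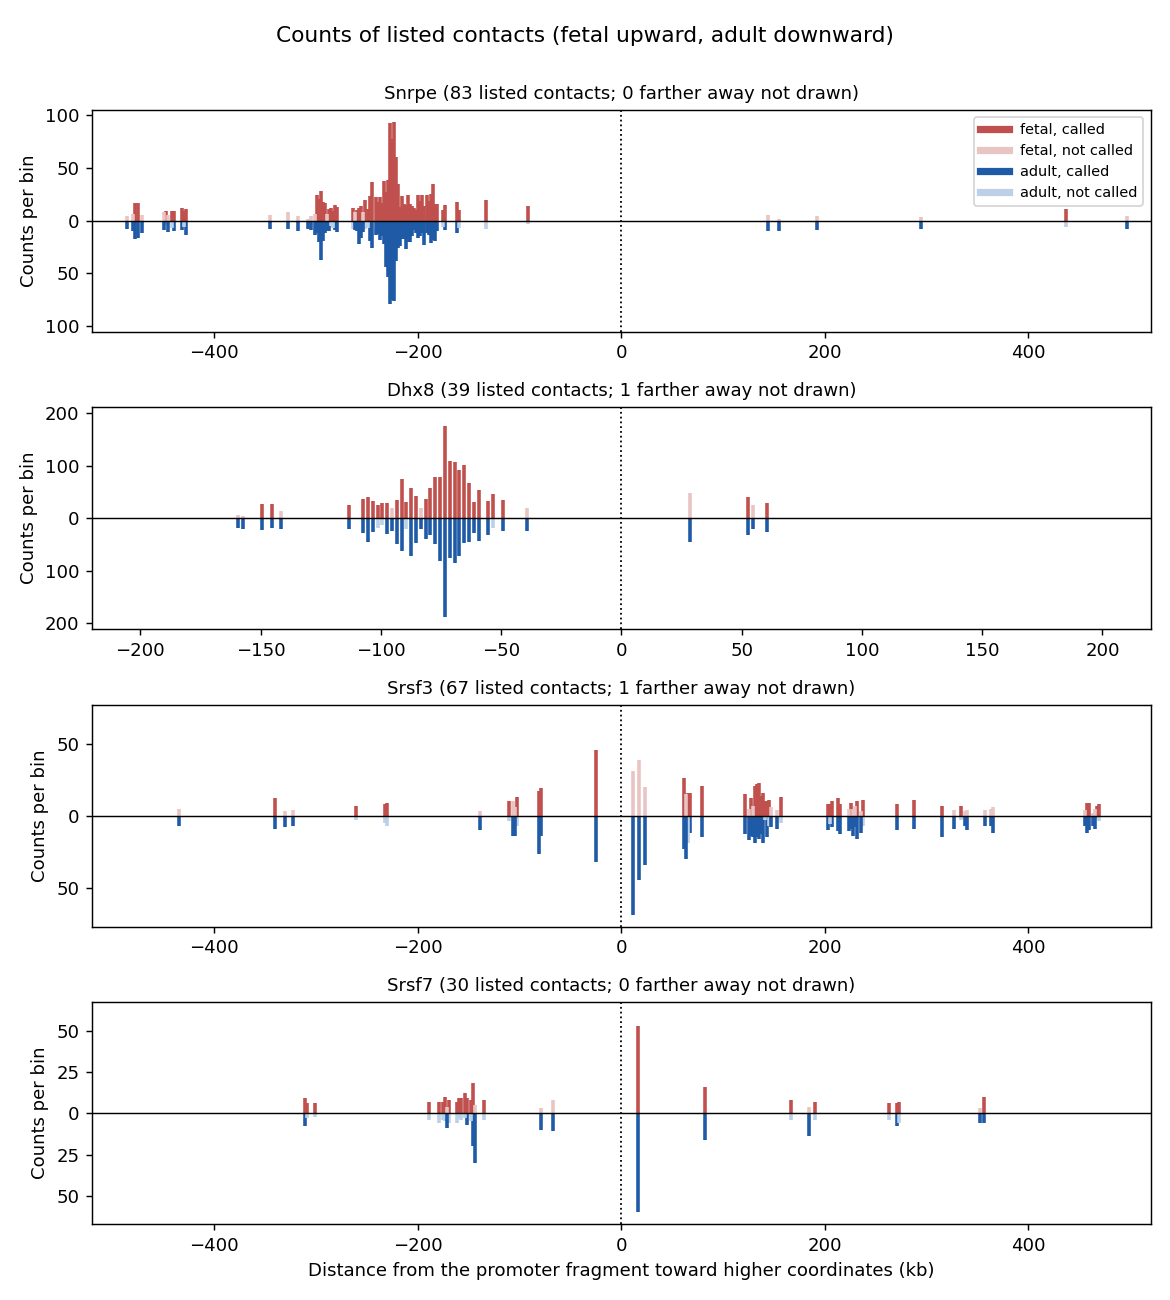
Counts per 2 kb bin (y axis, fetal upward and adult downward) of the listed contacts of Snrpe, Dhx8, Srsf3 and Srsf7 by distance from the promoter (x axis, kb, positive toward higher coordinates), with pale bars where that population did not call the contact. Snrpe and Dhx8 show dense one-sided blocks of like shape in both populations, and Srsf7 shows the adult bar of 30 counts at -143 kb beside a fetal count of 5.

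hnRNP genes had 76 fetal and 69 adult calls in 8 entries of 6 genes, and 0 carried the authors' mark of differential expression, as 35.5% of all first-batch entries do. Hnrnpr, one of the entries with a 2-fold lean, had 10 fetal and 4 adult calls, at FPKM of 26 and 31.7. Its strongest contact was fetal-specific and ended 258 kb away at the captured promoter of Rpl11, a ribosomal protein gene, with 20 fetal and 11 adult counts and a fetal score of 18.4. The promoter of Srsf10, an SR protein gene, contacted the same bin from 197 kb as an adult-specific contact with 10 fetal and 21 adult counts (score 13.2). Hnrnpr also had a fetal-specific contact with the Srsf10 promoter itself, 456 kb away, with 9 fetal and 4 adult counts. Within this cluster on chromosome 4, one promoter of the pair thus met Rpl11 with more counts in fetal cells and the other with more in adult cells.

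Hnrnpm, a regulator of alternative splicing, showed how far the number of calls can differ between promoter fragments of one gene. Listed contacts held 15 fetal and 2 adult counts for Hnrnpm, against 647 and 621 for Hnrnpm_2. How well each fragment was captured is not known, and its part in the number of calls of any promoter was not tested. Its fragments had 1 and 0, 5 and 1, and 34 and 37 fetal and adult calls in Hnrnpm, Hnrnpm_1 and Hnrnpm_2, and the first and last of these lie within 2 kb of each other. The shared contact of Hnrnpm_2 with an active promoter bin 74.3 kb away held 33 fetal and 43 adult counts. Hnrnpa3_1 had the highest adult FPKM of all entries, 224 against 214 in fetal cells, and a single contact, called in adult cells at 6 counts against 1. A high RNA level thus went with few called contacts in Hnrnpa3_1 and many in Snrpe.

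Genes named Ddx or Dhx, RNA helicases apart from Ddx26b, had 296 fetal and 337 adult calls in 17 entries of 16 genes. Ddx56, a nucleolar helicase of ribosome assembly, had the most calls of all 73 entries, 74 fetal and 73 adult, with 42 shared. A block of 20 fetal bins lay 301 to 263 kb toward lower coordinates, where adult cells had 10 called bins from 283 to 263 kb and 7 more from 313 to 299 kb. Across 1169 kb it had an adult-specific contact with the captured promoters of Ewsr1, an RNA-binding protein gene, with 4 fetal and 16 adult counts.

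Ddx5, a helicase that acts as a cofactor in transcription and splicing, leaned to adult cells in contacts and in RNA, with 41 fetal and 63 adult calls and FPKM of 72.2 and 133. Its contact with the captured promoter of Smarcd2, a subunit of the SWI/SNF remodelling complex, 515 kb away, was adult-specific with 13 fetal and 22 adult counts and a score of 15.2. Its contact with Kpna2, an importin gene, 211 kb away on the other side, was shared with 32 fetal and 28 adult counts. Enhancer bins took 11 fetal and 18 adult calls of Ddx5.

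Dhx8, the helicase that releases the spliced mRNA from the spliceosome, had 32 fetal and 35 adult calls, of which 27 were shared. A block of 26 fetal bins ran from 107 to 49.4 kb toward lower coordinates, and a block of 20 adult bins from 97.4 to 55.4 kb. The strongest bin, 73.4 kb away, had 176 fetal and 189 adult counts (scores 71.8 and 89.9) and carried the active enhancer mark in fetal cells alone. The contact was as strong in adult cells, where the mark was absent. FPKM was 7.25 in fetal and 4.59 in adult cells.

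Ddx19a, a helicase of mRNA export, met the captured promoter of Cog4, a Golgi complex subunit, 151 kb away with 125 fetal and 58 adult counts. Both populations called this contact, at scores of 48.6 and 15.8. Ddx4, the germ-cell helicase Vasa, was low in both populations, with FPKM of 1.92 in fetal and 0.0450 in adult cells, and had 12 fetal and 3 adult calls. Its counts per contact were at most 9 at the strongest listed bins, so its lean of 1.70 on the log2 scale rests on weak contacts. Ddx39, an mRNA export helicase, was higher in fetal cells in RNA (41.9 against 19.1) with 5 calls in each population. Ddx50, a nucleolar helicase, had 9 fetal and 13 adult calls and FPKM of 8.13 and 14.5.

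Ddx58, Ddx60 and Dhx58, singled out after their values were seen, were higher in adult cells in RNA, whereas 10 of the 17 Ddx and Dhx entries were higher in fetal cells. Ddx58, which encodes the RIG-I sensor, had FPKM of 2.06 in fetal and 6.59 in adult cells, a log2 ratio of -1.31, with 5 fetal and 9 adult calls. Ddx60, an interferon-induced helicase gene, had 0.174 and 1.65, a log2 ratio of -1.17, with 2 and 7 calls and no contact in common. Dhx58, which encodes the related LGP2, had 1.55 and 3.37, with 27 and 33 calls and 21 shared contacts. Ddx60 is a first-batch entry with the authors' mark of differential expression, while Ddx58 and Dhx58 belong to the second batch, where every entry has it. Dhx58 met the captured promoter of Dnajc7 at 84.9 kb in both populations (58 fetal and 40 adult counts), and that of Stat5b, a cytokine-signalling transcription factor gene, at 145 kb with 29 fetal and 6 adult counts, called in fetal cells. Ddx26b, whose product is related to an Integrator subunit, was also lower in fetal cells, at 2.42 against 6.45, with 3 and 1 calls. It was the target of an adult-specific contact from Rbmx, an hnRNP-like splicing factor gene, across 937 kb (3 fetal and 7 adult counts).

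RNA-binding motif genes had more adult calls in 8 of 11 entries and higher adult FPKM in 7 of 11. Over all entries, 42.1% (first batch) and 38.1% (second) had more adult calls. Higher adult FPKM was seen in 1002 of 1952 and in 989 of 1829 entries, so nothing is read from the FPKM count. The family had 159 fetal and 189 adult calls, and most of this difference lay in Rbm19. Rbm19, a nucleolar protein of ribosomal RNA processing, had 26 fetal and 50 adult calls, with 12 fetal-specific and 36 adult-specific contacts, at FPKM of 8.73 and 4.40. RNA and contacts thus leaned to opposite populations. Its adult calls included blocks of 10, 7 and 4 neighbouring bins between 393 and 329 kb toward lower coordinates, and the strongest adult-specific bin, 279 kb away, had 2 fetal and 14 adult counts. Rbm6, a splicing regulator, had 68 fetal and 55 adult calls with 36 shared. Rbm14, a coactivator with RNA-recognition motifs, had a strong adult-specific contact with the captured promoter of Dpp3, a peptidase gene, 117 kb away, with 31 fetal and 54 adult counts and a score of 14.04.

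Genes of tissue-regulated splicing had the higher RNA level in adult cells in 4 of 4 entries of 3 genes. Over all entries, 1002 of 1952 in the first batch and 989 of 1829 in the second did. Mbnl1 had FPKM of 16.1 in fetal and 29.4 in adult cells, and 16 fetal and 27 adult calls. Its enhancer contacts ran the same way, with 5 fetal and 12 adult calls, and at bins active as enhancers in adult cells alone it had 3 adult-specific, 2 shared and 0 fetal-specific contacts. Over all its bins, Mbnl1 had 4 fetal-specific and 15 adult-specific contacts, so no relation of mark and class is read. Mbnl2, with FPKM of 2.33 and 6.18 and a log2 ratio of -1.11, had 29 fetal and 27 adult calls, so that contacts did not follow RNA. The captured promoters of Celf2 had 7 and 5 calls in one case and 4 in each population in the other, without a shared contact, at FPKM of 11.5 and 18.8 and of 13.5 and 23.2.

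Nucleolar Nop genes had the higher RNA level in fetal cells in 4 of 4 entries of 3 genes, all of the first batch. Over all entries of that batch, 936 of 1952 did. Of the 4 Nop entries, 2 had more adult calls, where 42.1% of all entries did. Nop2, a ribosomal RNA methyltransferase, had FPKM of 24.2 and 13.6 and 18 fetal and 32 adult calls, with 6 fetal-specific and 20 adult-specific contacts. Its strongest adult-specific bin, 92.9 kb away, had 25 fetal and 43 adult counts and was an active promoter in adult cells alone. The adjoining fragments of Nop56, a core protein of box C/D particles, had 9 and 6, and 14 and 23 calls. Nop16, a ribosome assembly factor, met 6 bins that were enhancers in fetal cells alone, 4 of them shared and 2 adult-specific, the strongest being 97.6 kb away with 30 fetal and 31 adult counts. Pum2, a Pumilio repressor of mRNAs, had 9 and 6 calls, while Pabpn1 and Cnot6l had 0 fetal and 3 and 1 adult calls.

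Over all families RNA differed little between the populations. Of the 59 entries of the first batch, 37 had the higher FPKM in fetal and 22 in adult cells, with a median log2 ratio of 0.27, beside -0.04 over all entries. Of all 1952 entries of that batch, 936 were higher in fetal and 1002 in adult cells. At least 2-fold differences (FPKM + 1) were found for Ddx39, Ddx4 and Lsm2 in the fetal direction, 3 of 59 entries where 5.07% of all entries passed, and for Ddx26b and Ddx60 in the adult direction, 2 of 59 where 13.3% passed. In the second batch Ddx58 and Mbnl2 passed in the adult direction, 2 of 14 where 16.1% passed, and 0 in the fetal direction, where 11.4% did. The authors' mark of differential expression was carried by 10 first-batch entries higher in fetal cells (all entries, 15.8%) and by 3 higher in adult cells (19.7%), which were Celf2_1, Cnot6l and Ddx60. Every entry of the second batch carries the mark, with 8 of 14 higher in fetal (45.9%) and 6 higher in adult cells (54.1%).

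Captured markers of other blood cells differed between the populations. All 8 captured erythroid markers of a list of 10 were higher in fetal cells, with a summed FPKM of 110 against 26.2, as were all 7 captured macrophage markers of 10, with 46.8 against 2.74. Of 10 captured stem and progenitor markers, 7 were higher in adult cells, and 0 of 6 markers of liver parenchyma were listed. Over all entries, 936 of 1952 (first batch) and 840 of 1829 (second) were higher in fetal cells. The markers were not divided by batch, and every second-batch entry carries the mark of differential expression. How far this choice of genes shaped the marker counts was not tested. No captured marker was at 0, and the lowest adult values were 0.0112 FPKM among erythroid and 0.00996 among macrophage markers. Flt3, which encodes the CD135 that the sort excludes, was at 6.20 fetal and 3.81 adult FPKM. The sort also removes lineage-positive cells. In bulk samples, fewer cells of a type and less RNA per cell cannot be told apart, and the part of other cell types in these FPKM values was not tested.

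**Figure D5:**
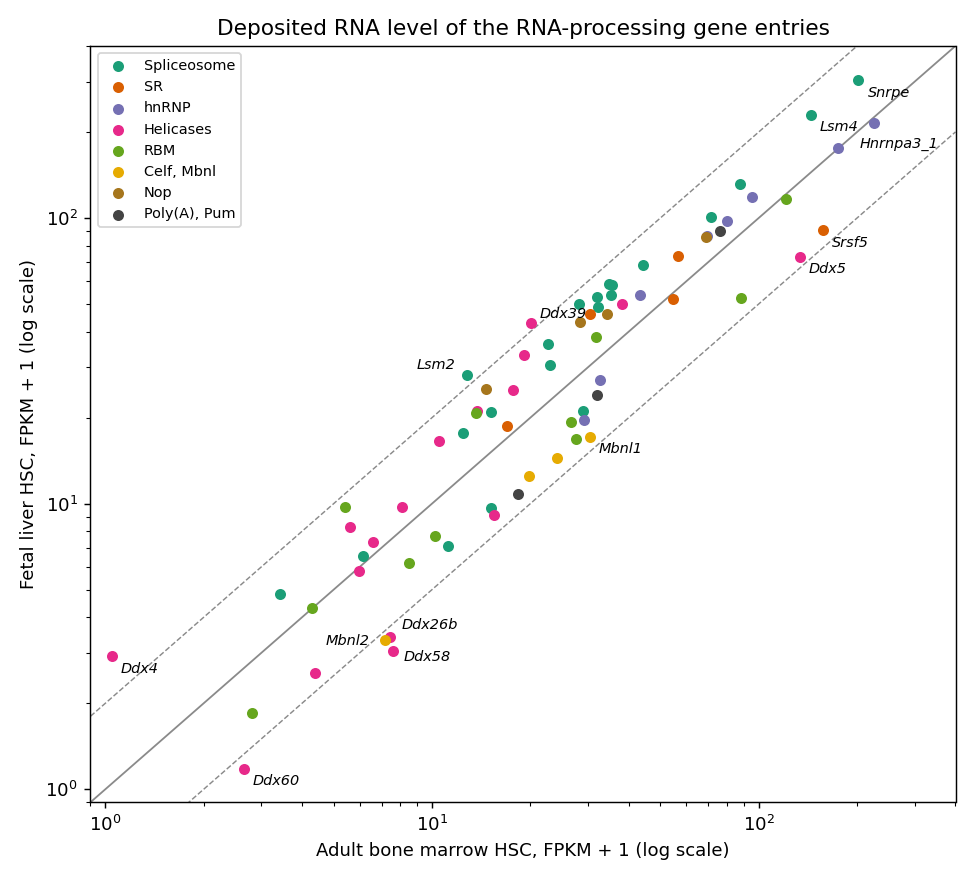
Deposited FPKM + 1 of the 73 entries in fetal (y axis) against adult HSCs (x axis), both on log scales, coloured by family, with the line of equality and dashed lines at 2-fold. Most spliceosome and Nop points lie above the line of equality, Celf, Mbnl, Ddx58 and Ddx60 lie below it, and few points lie beyond the dashed lines.

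The direction of RNA and that of contacts showed no tie that held in both batches. Of the 37 first-batch entries with higher fetal FPKM, 16 leaned to fetal and 19 to adult cells in calls, and the fetal-specific share was 45.1% (41.4 to 48.8%). For the 22 with higher adult FPKM the numbers were 10 and 11, and the share was 49.6% (44.1 to 55.0%). In the second batch the share was 53.6% (43.2 to 63.8%) over 8 entries with higher fetal FPKM and 37.0% (26.6 to 48.5%) over 6 with higher adult FPKM. The batches therefore ran in opposite order, and the intervals overlap in each. Over all entries with higher fetal or higher adult FPKM, the shares were 52.5% and 52.1% in the first batch. They were 54.6% and 52.9% in the second.

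Some contacts joined genes of the set to each other. Of 1781 distinct distal bins, 5 were listed for more than one of these genes. Of these, 3 were bins elsewhere on chromosome 10 that were listed for Lsm7 and for its neighbour Sf3a2. The distal bins held a captured promoter of another gene in 157 pairs of a contact and an entry, covering 121 genes. Of the pairs, 68 were shared, 58 adult-specific and 31 fetal-specific. A contact whose bin holds several entries counts once for each of them. The classes were not counted for such pairs of other promoters, so no lean is read from them. Of these pairs, 5 (3.18%) led to another gene of the set, which holds 1.93% of all entries, and nothing is read from so few: Lsm7 to either Sf3a2 fragment, Sf3a2 to Lsm7, Hnrnpr to Srsf10, and Rbmx to Ddx26b.

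Other genes of RNA processing, taken from a list of 85 genes outside the name rule, were set beside them. Of these, 33 genes were captured in 38 entries. Of 27 first-batch entries, 10 leaned to fetal and 14 to adult cells in calls, and the fetal-specific share was 49.8% (45.6 to 54.0%). For the second batch, 9 of 11 had more fetal calls, and the share was 57.6% (49.1 to 65.8%), so these genes did not repeat the adult lean there. The largest leans to fetal cells were those of Stau2, an RNA transport protein (12 fetal and 3 adult calls), Upf2 of nonsense-mediated decay (17 and 9) and Nudt21 of the cleavage factor (39 and 24). The largest leans to adult cells were those of Imp4, a nucleolar protein of ribosome assembly (18 and 30), Ptbp1_1, a splicing repressor (4 and 7), and Eif4a3 of the exon junction complex (9 and 14).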

How the data were processed

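Promoter Capture-C libraries of fetal and adult HSCs were processed by the authors into a single table. Per the submitters' processing notes, Trim Galore 0.41 and Bowtie2 2.2.2 were used, with the build mm9. How reads were filtered and which model gave the calls is not given in the sources used here. For every contact the table deposited by the authors gives each population a score, whose definition is not stated and which behaves like a negative log10 p-value, and a count in whole numbers (sum or mean of libraries not stated). The authors also deposited FPKM values per transcript, and 0 or 1 marks of each distal bin. FPKM and marks come from other assays of the same populations, whose making is not given in the sources used here. Of the columns with values per sample, 0 could not be assigned to a population.

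Calls, classes and distances were computed with Python 3.11.15, pandas 2.3.3, numpy 2.4.6 and scipy 1.17.1, and figures with matplotlib 3.10.9. Distance ran from the middle of the fragment to the middle of the bin within a chromosome. Ratios are log2 after 1 was added to calls or to FPKM, which understates changes of low values. The counting was checked on simulated calls with known answers. Per-library tests and the replicate block that had been planned were not run, since the values are pooled.

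Named entries are, per batch and among those with at least 10 calls, the 5 with the largest ratio of calls in each direction, the top 3 by number of fetal and of adult calls, and the top entry of every family. To these come the 5 genes with the largest FPKM ratio each way, the 3 with the highest FPKM, and genes with several promoters or captured in both batches. Any further member named was picked with its values in view. The genes, gene lists and families were chosen with earlier results of these data known. Symbols of 65 of the 67 genes matched RefSeq directly and 2 through a synonym. Alternatives were a stricter score, distance and count limits, merging of bins, match tolerances, other pseudocounts and minimums, and 1 promoter per gene. Leaving out the 5 entries with the most calls, and the 3 with the largest adult excess, was added after seeing the data.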

Additional observations from a re-analysis of the deposited data

How the results depend on the processing

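Over 30 results and 132 recomputed values, 115 stayed within the counting interval of the reported value or, for counts, within 1.5 times of it. The fetal-specific share stayed below that of other entries in both batches under every alternative run, but at a match tolerance of 20 kb it moved to 37.5% in the second batch, over 40 contacts. Without the 5 entries with the most calls it was 47.0% in the first batch, and without Rbm19, Ddx5 and Nop2 it was 49.2%. Leaving out the latter entries, picked for their adult excess, could only raise it. Shared contacts as a share of all were 28.6% and 42.02%. They moved to 57.9% and 74.9% at a tolerance of 5 kb and to 76.0% and 87.0% at 20 kb, and with the stricter score to 31.8% in the first batch. With the stricter score, first-batch calls at active promoter bins moved to 28.1% (fetal) and 26.4% (adult), and second-batch calls to 29.3% and 30.1%. Calls at open bins moved to 66.9% and 69.9% in the first batch and, for adult cells, to 68.3% in the second. The other entries moved upward with it too, to 19.5% and 23.1% for promoter bins in the first batch. First-batch entries with 2-fold more fetal calls numbered 1 with the stricter score. With at least 20 calls, 0 entries were 2-fold higher in fetal cells and 0 in adult cells, so each of the 4 named ones rests on fewer than 20 calls. With 0.1 added to FPKM, 4 second-batch entries were 2-fold higher in adult cells. No paired analysis was possible because the deposited values are pooled over libraries, and for the same reason no library could be left out. Depth per library is unknown.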

Other observations

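Some contacts of these promoters reached another chromosome or held very high counts, and are given as values. Contacts between chromosomes numbered 15. Srsf5 met a bin on chromosome 4 with 4160 fetal and 219 adult counts, called in both populations, and Snrpc met one on chromosome 15 with 2867 and 2387. Both Ddx18 promoters met the same bin on chromosome 6, with 1085 fetal and 890 adult counts from Ddx18_1 and 119 and 11 from Ddx18. Ddx5 met a bin 58083 kb away on its own chromosome with 1249 fetal and 49 adult counts. Srsf3 met the captured promoter of Lrrc39 on chromosome 3 with 57 fetal and 3 adult counts, and Snrpf met a bin on chromosome 4 with 30 and 0 counts, both called only in fetal cells. Leaving out contacts of at least 1000 counts left the fetal-specific shares of these genes at 46.5% and 46.1%, since those contacts are shared.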
